A study of Mus musculus with 12 samples.

Results

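The 8 genes described here carry lipids between and within brain cells. They are the apolipoprotein genes Apoe, Clu and Apod, the lipid exporter genes Abca1 and Abcg1, and the fatty acid-binding protein genes Fabp3, Fabp5 and Fabp7, all found by their gene symbol among 53932 gene identifiers in the tables of 12 mouse libraries. RNA sequencing of total RNA from cultured cells of C57BL/6 mice gave one value per gene and library in FPKM, fragments scaled to the length of the transcript and the size of the library. There were 4 groups of 3 libraries. MIM-Astrocytes were astrocytes moved from serum to MIM, a serum-free medium with FGF2 at 20 ng/mL and up to 6 metabolites (the amino acids glycine, cysteine, threonine and methionine, with putrescine and S-adenosylmethionine), and were collected on or before day 5. Glioblastoma was a tumour culture whose labels give cerebella and E18.5, and how it was made is not stated. NSC, neural stem cells, were neurospheres from cortex at E14.5, fed EGF and FGF2 at 20 ng/mL each. Astrocytes were kept in medium with 10% serum. The protocol describes GLAST-sorted postnatal cortex and differentiated neurospheres as sources of astrocytes, the one used here is not given, and the age label of both astrocyte groups is E14.5. The series asked how one-carbon metabolites bear on cell identity. The labels do not state whether replicate libraries derive from different cultures or mice, so p-values measure the spread between these libraries, which may be technical.

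In brain, astrocytes secrete most of the apolipoprotein E and clusterin, which carry cholesterol and phospholipid outside the cell. The membrane transporters ABCA1 and ABCG1 load lipid onto these particles, and ABCA1 is a textbook target of the liver X receptors, which sense oxysterols. Inside the cell, fatty acid-binding proteins carry long-chain fatty acids between membranes, droplets and the nucleus. Fabp7 is the form of radial glia, neural stem cells and astrocytes, Fabp5 is found in many cell types including neural progenitors, and Fabp3 is best known from heart and muscle and from mature neurons. Apod encodes a small lipocalin that binds arachidonic acid and steroids.

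Sequences of promoters came from RefSeq on GRCm38.p6, as the 250 bases before a transcript's start, read in the direction of the gene. Such windows existed for 5 of the 8 genes, 7 windows in all. The 3 windows below are shown because they belong to the apolipoprotein, exporter and carrier genes of high level that have a window. Every motif match is in capitals.
Apoe, chr7:19699189-19699438, minus strand: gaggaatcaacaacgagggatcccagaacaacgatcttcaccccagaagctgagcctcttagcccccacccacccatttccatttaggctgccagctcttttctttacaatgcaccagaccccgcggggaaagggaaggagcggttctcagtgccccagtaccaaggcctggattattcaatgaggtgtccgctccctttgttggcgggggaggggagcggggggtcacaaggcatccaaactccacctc
Abca1, chr4:53159896-53160145, minus strand: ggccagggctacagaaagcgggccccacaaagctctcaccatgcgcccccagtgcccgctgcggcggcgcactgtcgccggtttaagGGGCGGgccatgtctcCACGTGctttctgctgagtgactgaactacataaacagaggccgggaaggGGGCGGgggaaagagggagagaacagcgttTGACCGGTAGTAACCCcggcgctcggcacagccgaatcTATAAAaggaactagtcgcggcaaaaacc
Fabp7, chr10:57784673-57784922, plus strand: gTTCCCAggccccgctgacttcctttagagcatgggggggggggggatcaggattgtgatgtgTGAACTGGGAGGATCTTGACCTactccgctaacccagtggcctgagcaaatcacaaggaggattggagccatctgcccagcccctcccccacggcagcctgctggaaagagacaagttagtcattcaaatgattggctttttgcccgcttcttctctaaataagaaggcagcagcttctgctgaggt
Apoe has 3 windows in RefSeq, and the one printed lies directly before the gene as the tables place it. Both strands were searched for 9 motifs, and this Apoe window held none of them. Of the other Apoe windows, which lie inside the gene, one held TATAAA on both strands, 100 and 96 bases before its start, and one held TTGGCA at 57. In the Abca1 window the capitals mark, in order, a GC box (GGGCGG) 163 bases before the start, an E-box (CACGTG) at 147, a second GC box at 97, a nuclear receptor repeat at 67 to 52, and a TATA box (TATAAA) at 29. The repeat is the half-site AGGTCA, 4 bases of any kind and the half-site again, with up to 3 of its 12 letters allowed to differ. Both windows that hold it have 3 mismatches on the strand opposite to the gene. In the Fabp7 window the capitals mark the reverse complement of the RBPJ core (TGGGAA) at 249 bases, the repeat at 187 to 172 and, directly after it, an exact half-site on the opposite strand at 171. This window ends at 57784922, inside the deposited gene span that starts at 57784881, so its distances count from the RefSeq start. Among all 32851 promoter windows of the same length, the repeat was found in 18.51%, AGGTCA in 14.0%, TGGGAA in 21.6%, GGGCGG in 32.7%, CACGTG in 6.02% and TATAAA in 12.4%. The other motifs were TTGGCA in 12.3%, ATGCAAAT in 1.60% and TGANTCA in 6.75% of windows, with no match in these 3. GC content was 57.2% for Apoe, 61.6% for Abca1 and 54.8% for Fabp7, against a median of 52.4%, and Abca1 held 20 CpG dinucleotides where the median window held 6.

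The libraries' FPKM summed to 665449 to 795257 in MIM-Astrocytes, 812104 to 979106 in Glioblastoma, 734241 to 812381 in NSC and 514728 to 623809 in Astrocytes, and protein-coding genes made up 39.8% to 63.3% of the sums. Depth is unknown because no counts were used here. For genes at 10 to 100 FPKM the intervals in the tables reached a median of 6.40% to 7.68% to each side. A gene was tested when it reached 1 FPKM in at least 3 libraries, which left 16982 genes. Of the 8 genes 7 passed, and Apod did not. Abcg1 passed only through its level in NSC and Fabp3 only through its level in Glioblastoma, so both had to differ somewhere. Differences below are on the log2 scale of FPKM plus 1, which understates changes of low genes. They come from limma fitted over all 12 libraries, and "called" stands for an adjusted p below 0.05.

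Marker genes were read with the 8 genes left out. All 12 astrocyte markers reached 1 FPKM in every library of MIM-Astrocytes and of Astrocytes, 9 did so in Glioblastoma and 10 in NSC. Their sums were 2684 to 3257 FPKM in MIM-Astrocytes, 671 to 707 in Glioblastoma, 1146 to 1319 in NSC and 2171 to 2545 in Astrocytes. Gfap, the filament gene of mature and reactive astrocytes, stood at 7.35 ± 0.207 FPKM in MIM-Astrocytes, 3.20 ± 0.310 in Glioblastoma, 0.964 ± 0.169 in NSC and 258 ± 16.1 in Astrocytes (SD, n = 3). Microglia and macrophages also make Apoe in brain. Of their 14 markers 2 reached 1 FPKM in at least 3 libraries, Cd68 among them, while Trem2 was at 0 in every library, and C1qa was at 0 in every library outside NSC and at most 0.0389 FPKM there. Markers of meningeal fibroblasts summed to 7.47 to 8.02 FPKM in MIM-Astrocytes, 11.4 to 11.9 in Glioblastoma, 24.9 to 28.0 in NSC and 156 to 186 in Astrocytes. Ogn, at 164 ± 16.4 FPKM, made up most of the sum in Astrocytes. There Col1a1 was 2.69 ± 0.655 FPKM, and Col1a2, Col3a1, Dcn and Lum were at most 0.0980. Pdgfra, also a listed marker of the oligodendrocyte lineage, made up most of the sum in NSC (24.4 ± 1.44) and in Glioblastoma (10.3 ± 0.262). Markers of ependymal and choroid plexus cells summed to 20.0 to 23.5 FPKM in MIM-Astrocytes, 2.44 to 5.81 in Glioblastoma, 5.52 to 7.53 in NSC and 67.3 to 81.3 in Astrocytes. In bulk samples such as these, fewer cells of a type and less RNA per cell cannot be told apart.

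Apoe (ENSMUSG00000002985.16, chr7:19696109-19699188, minus strand, GRCm38) took place 1 among protein-coding genes in each MIM-Astrocytes library and took place 3 in each NSC and Astrocytes library. It read 6974, 7971 and 7431 FPKM in MIM-Astrocytes, 15.5, 17.0 and 16.6 in Glioblastoma, 3941, 3822 and 3293 in NSC, and 5312, 6022 and 4791 in Astrocytes. Glioblastoma was far below every other library, and the 4 groups did not overlap. Apoe held 2.07% ± 0.0419 of all protein-coding FPKM in MIM-Astrocytes, 0.00406% ± 0.000160 in Glioblastoma, 1.14% ± 0.0305 in NSC and 1.52% ± 0.0498 in Astrocytes (SD, n = 3). In the Glioblastoma libraries it ranked between 4639 and 5017. The level was 225-fold lower in Glioblastoma than in NSC (log2 difference -7.73, SE 0.12, adjusted p = 1.71e-11, lower in 3 of 3 libraries) and 329-fold lower than in Astrocytes (log2 difference -8.27, adjusted p = 3.52e-12). The difference between MIM-Astrocytes and Glioblastoma was 8.75 (adjusted p = 8.43e-12), a 456-fold difference of the means. The sum of the astrocyte markers given above was lowest in Glioblastoma too, and its part in the Apoe result was not tested.

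Among the other 3 groups the differences of Apoe were small. MIM-Astrocytes were 1.39-fold higher than Astrocytes (log2 difference 0.48, SE 0.12, adjusted p = 0.00659) and 2.02-fold higher than NSC (log2 difference 1.02, adjusted p = 5.76e-05). NSC were 1.46-fold lower than Astrocytes (log2 difference -0.54, adjusted p = 0.00254). The difference between MIM-Astrocytes and Astrocytes lost its call when libraries were scaled to a common total (0.14, adjusted p = 0.301), and also when only the 6 libraries of the comparison were fitted (adjusted p = 0.19). NSC against Astrocytes lost its call in the 6-library fit as well (adjusted p = 0.0783), while MIM-Astrocytes against NSC kept it there. As a share of protein-coding FPKM the lowest MIM-Astrocytes library, at 2.03%, still lay above the highest Astrocytes library, at 1.58%.

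Clu (ENSMUSG00000022037.15, chr14:65968483-65981547, plus strand), whose product clusterin is a secreted chaperone and apolipoprotein, had a different order of groups. It read 85.2, 101 and 97.3 FPKM in MIM-Astrocytes, 28.6, 28.0 and 28.0 in Glioblastoma, 2.36, 2.73 and 2.18 in NSC, and 844, 937 and 763 in Astrocytes. Each group was clear of the next, with Astrocytes highest, then MIM-Astrocytes, Glioblastoma and NSC. Among protein-coding genes its place was 9816 to 10122 in NSC and 27 to 29 in Astrocytes. Clu fell to a level 8.98-fold lower in MIM-Astrocytes than in Astrocytes (log2 difference -3.15, SE 0.09, adjusted p = 6.54e-10). In NSC it was 350-fold lower than in Astrocytes (log2 difference -7.95, adjusted p = 1.54e-12). In Glioblastoma it was 30.1-fold lower than in Astrocytes (log2 difference -4.86) but 11.6-fold higher than in NSC (log2 difference 3.09, adjusted p = 8.66e-10), the reverse of what Apoe did in that comparison. MIM-Astrocytes stayed 38.9-fold above NSC (log2 difference 4.80, adjusted p = 4.82e-10) and 3.35-fold above Glioblastoma (log2 difference 1.70, adjusted p = 6.05e-08). The sums of meningeal markers, mostly Ogn, and of ependymal markers given above were also highest in Astrocytes. Their part in the Clu result was not tested.

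The balance of both apolipoprotein genes can be read within a library, where scaling cancels. The ratio of Apoe to Clu was 79.1 ± 2.75 in MIM-Astrocytes, 0.580 ± 0.0353 in Glioblastoma, 1526 ± 135 in NSC and 6.33 ± 0.0835 in Astrocytes (SD, n = 3). Clu exceeded Apoe in the 3 Glioblastoma libraries and in no other library. Apod (ENSMUSG00000022548.14, chr16:31296192-31314808, minus strand) was between 0.0216 and 0.405 FPKM, and the interval of every library reached down to 0. Only the setting without the filter on low values tested it. There its 6 differences lay between -0.22 and 0.03, with limma 0 were called (smallest adjusted p = 0.0809), and 1 had an unadjusted p below 0.05.

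**Figure D1:**
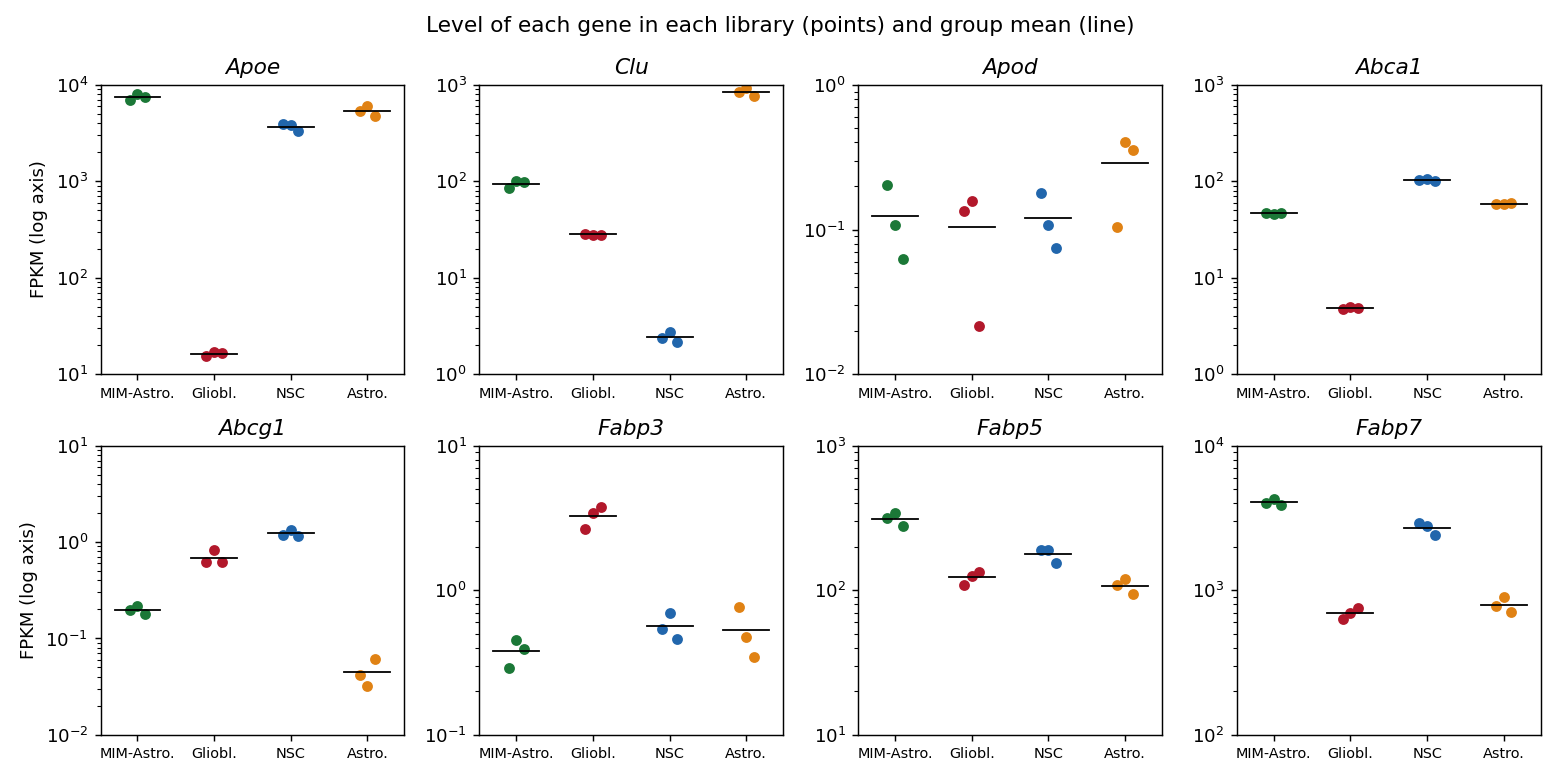
Level of each of the 8 genes in FPKM on a log axis, whose range differs between panels. Points are the 3 libraries of MIM-Astrocytes (MIM-Astro.), Glioblastoma (Gliobl.), NSC and Astrocytes (Astro.), and lines are group means. Glioblastoma libraries lie between 15.5 and 17.0 FPKM for Apoe, far below the others, while for Fabp3 they are the highest, at 2.65 to 3.78 FPKM.

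Abca1 (ENSMUSG00000015243.4, chr4:53030787-53159895, minus strand), the exporter that hands cholesterol and phospholipid to lipid-poor apolipoproteins, varied little between replicates. It read 46.5, 45.6 and 47.4 FPKM in MIM-Astrocytes, 4.72, 4.96 and 4.79 in Glioblastoma, 104, 105 and 101 in NSC, and 58.6, 58.1 and 59.4 in Astrocytes. NSC were highest and Glioblastoma lowest, with no overlap between any pair of groups. Glioblastoma was 21.3-fold lower than NSC (log2 difference -4.16, SE 0.04, adjusted p = 1.62e-12) and 12.2-fold lower than Astrocytes (log2 difference -3.36, adjusted p = 9.72e-13). MIM-Astrocytes were 1.26-fold lower than Astrocytes (log2 difference -0.33, adjusted p = 3.29e-05), 2.22-fold lower than NSC (log2 difference -1.13, adjusted p = 1.04e-08) and 9.63-fold higher than Glioblastoma (log2 difference 3.03, adjusted p = 4.34e-12). NSC were 1.75-fold higher than Astrocytes (log2 difference 0.80, adjusted p = 2.32e-08). MIM-Astrocytes thus had less Abca1 than Astrocytes and than NSC. Their higher Apoe level had the limits given above. The ratio of Apoe to Abca1 was 161 ± 12.9 in MIM-Astrocytes, 3.39 ± 0.0958 in Glioblastoma, 35.8 ± 2.68 in NSC and 91.6 ± 11.5 in Astrocytes.

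Abcg1 (ENSMUSG00000024030.6, chr17:31057698-31115777, plus strand), which passes sterol on to particles that already hold lipid, was low in every group. It read 0.200, 0.219 and 0.179 FPKM in MIM-Astrocytes, 0.614, 0.823 and 0.626 in Glioblastoma, 1.19, 1.34 and 1.16 in NSC, and 0.0413, 0.0320 and 0.0617 in Astrocytes. The groups did not overlap, although the intervals of the 3 Astrocytes libraries reached 0. NSC were higher than Astrocytes by 1.09 on the log2 scale (adjusted p = 7.84e-08), and Glioblastoma was above Astrocytes (log2 difference 0.69, adjusted p = 2.11e-06) and below NSC (log2 difference -0.40, adjusted p = 0.000188). MIM-Astrocytes were below NSC (log2 difference -0.89, adjusted p = 1.11e-06) and below Glioblastoma (log2 difference -0.49, adjusted p = 4.46e-05). Abcg1 was tested only because of its level in NSC, so its p-values against NSC are not independent of that filter. The difference of 0.20 between MIM-Astrocytes and Astrocytes (adjusted p = 0.0178) was not called without MIM-Astrocytes replicate 2 (adjusted p = 0.0537) or after quantile normalization (0.05, adjusted p = 0.455). Relative to Astrocytes, Abca1 was thus lower and Abcg1 higher in Glioblastoma and, by smaller differences with the limits just given, in MIM-Astrocytes. Relative to NSC, both exporter genes were lower in Glioblastoma and in MIM-Astrocytes, a direction that the filter favoured for Abcg1.

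Fabp7 (ENSMUSG00000019874.11, chr10:57784881-57788450, plus strand), the brain-type carrier, was the most abundant of the 3 carrier genes per transcript length in each library. It read 4037, 4260 and 3876 FPKM in MIM-Astrocytes, 634, 694 and 754 in Glioblastoma, 2904, 2763 and 2422 in NSC, and 775, 902 and 711 in Astrocytes. Among protein-coding genes it took place 3 in each MIM-Astrocytes library and place 5 in each NSC library. MIM-Astrocytes and NSC were high, and Glioblastoma and Astrocytes were low and overlapped. MIM-Astrocytes were 5.10-fold higher than Astrocytes (log2 difference 2.35, SE 0.13, adjusted p = 1.02e-07), and NSC 3.39-fold higher than Astrocytes (log2 difference 1.76, adjusted p = 7.25e-07). These comparisons share the Astrocytes libraries. Set against NSC directly, MIM-Astrocytes were 1.50-fold higher (log2 difference 0.59, adjusted p = 0.00334), and this call was lost in the fit of the 6 libraries alone (adjusted p = 0.0746). Glioblastoma was 3.89-fold lower than NSC (log2 difference -1.96, adjusted p = 3.76e-07). Between MIM-Astrocytes and Glioblastoma the difference was 2.55 (adjusted p = 5.06e-08). Markers of neural stem cells did not share a pattern. Tnc was lowest in MIM-Astrocytes, at 1.81 ± 0.127 FPKM, and highest in Glioblastoma, at 65.2 ± 0.578. Prom1 was also lowest in MIM-Astrocytes (2.29 ± 0.534) and highest in Glioblastoma (12.8 ± 1.20), and Pax6 was highest in Astrocytes (22.1 ± 2.03). Egfr, like Fabp7, was high in MIM-Astrocytes and NSC. Egfr stood at 151 ± 13.9 FPKM in MIM-Astrocytes, 12.8 ± 0.745 in Glioblastoma, 170 ± 3.19 in NSC and 19.9 ± 0.421 in Astrocytes (SD, n = 3). Of the 11 markers of that list 11 reached 1 FPKM in every library of MIM-Astrocytes, Glioblastoma and NSC, and 8 in Astrocytes, and their sum, led by Vim, was 1254 to 1420 FPKM in MIM-Astrocytes, 1548 to 1657 in Glioblastoma, 1351 to 1551 in NSC and 2290 to 2754 in Astrocytes. The 12 markers of the oligodendrocyte lineage, led by Olig1, summed to 512 to 586 FPKM in MIM-Astrocytes, 347 to 355 in Glioblastoma, 487 to 572 in NSC and 105 to 122 in Astrocytes. The part of either list in the Fabp7 result was not tested. The difference of Glioblastoma from Astrocytes was -0.19 (adjusted p = 0.201), and it was called at -0.37 to -1.09 under each of the 4 other scalings, the largest adjusted p being 0.00126.

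Fabp5 (ENSMUSG00000027533.10, chr3:10012548-10016607, plus strand), the epidermal-type carrier, had the same order of group means as Fabp7 except for Glioblastoma and Astrocytes. It read 317, 344 and 278 FPKM in MIM-Astrocytes, 109, 126 and 135 in Glioblastoma, 191, 189 and 154 in NSC, and 108, 121 and 94.4 in Astrocytes. Only Glioblastoma and Astrocytes overlapped. MIM-Astrocytes were 2.91-fold higher than Astrocytes (log2 difference 1.53, SE 0.13, adjusted p = 2.47e-06), 1.76-fold higher than NSC (log2 difference 0.82, adjusted p = 0.000362) and 2.54-fold higher than Glioblastoma (log2 difference 1.34, adjusted p = 5.53e-06). NSC were 1.65-fold higher than Astrocytes (log2 difference 0.72, adjusted p = 0.000543), and Glioblastoma 1.44-fold lower than NSC (log2 difference -0.52, adjusted p = 0.00410). The difference of Glioblastoma from Astrocytes, 0.19 (adjusted p = 0.193), changed sign under 3 of the 4 other scalings. It was called lower with a common total (-0.42, adjusted p = 0.00428) and after quantile normalization (-0.35, adjusted p = 0.00286), and called higher with array weights (0.19, adjusted p = 0.0425). Reads of Fabp5 can also be assigned to 5 near-identical pseudogene copies. The most abundant copy, Gm6166, read 73.5 ± 7.03 FPKM in MIM-Astrocytes, 30.8 ± 6.17 in Glioblastoma, 39.6 ± 0.983 in NSC and 17.6 ± 0.872 in Astrocytes, so the split between gene and copies is uncertain. With the copies added, Glioblastoma minus Astrocytes was called at 0.31 (adjusted p = 0.0413), and the other 5 comparisons stayed called in the same direction.

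Fabp3 (ENSMUSG00000028773.8, chr4:130308595-130315463, plus strand), the heart-type carrier, was scarce outside Glioblastoma. It read 0.290, 0.450 and 0.391 FPKM in MIM-Astrocytes, 2.65, 3.40 and 3.78 in Glioblastoma, 0.540, 0.691 and 0.460 in NSC, and 0.766, 0.474 and 0.347 in Astrocytes. Glioblastoma stood clear of the rest, 5.81-fold above NSC (log2 difference 1.45, SE 0.12, adjusted p = 2.15e-06) and 6.19-fold above Astrocytes (log2 difference 1.48, adjusted p = 1.06e-06). MIM-Astrocytes were 8.68-fold lower than Glioblastoma (log2 difference -1.63, adjusted p = 8.88e-07). Fabp3 was tested only because of its level in Glioblastoma, so its p-values against Glioblastoma are not independent of that filter. The other differences were -0.14 in MIM-Astrocytes minus Astrocytes (adjusted p = 0.340), 0.04 in NSC minus Astrocytes (adjusted p = 0.792) and -0.18 in MIM-Astrocytes minus NSC (adjusted p = 0.237). The first was called at -0.32 with a common total (adjusted p = 0.0359), at -0.29 after quantile normalization (adjusted p = 0.0464) and at -0.34 with array weights (adjusted p = 0.00507), and was 0.05 with its copy added. Fabp3 overlaps Zcchc17 on the opposite strand, and without stated strandedness their reads cannot be told apart. Zcchc17 itself was lower in Glioblastoma than in Astrocytes, at 13.5 ± 0.927 FPKM in Glioblastoma and 24.7 ± 2.32 FPKM in Astrocytes (log2 difference -0.82, adjusted p = 1.25e-05). The near-identical pseudogene copy of Fabp3, Fabp3-ps1, was highest in Glioblastoma as Fabp3 was. Fabp3-ps1 read 1.12 ± 0.0267 FPKM in Glioblastoma, 0.494 ± 0.0868 in MIM-Astrocytes, 0.460 ± 0.199 in NSC and 0.292 ± 0.154 in Astrocytes. The part of Zcchc17 or of the copy in the Fabp3 result was not tested.

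The 3 carrier genes together summed to 4371 ± 225 FPKM in MIM-Astrocytes, 820 ± 73.5 in Glioblastoma, 2875 ± 268 in NSC and 904 ± 110 in Astrocytes (SD, n = 3). Fabp5 made up 7.15% ± 0.407 of that sum in MIM-Astrocytes, 15.0% ± 0.315 in Glioblastoma, 6.18% ± 0.215 in NSC and 11.9% ± 0.296 in Astrocytes. These shares do not change with the scaling of a library, and their ranges did not overlap between groups. The ratio of Fabp7 to Fabp5 was 13.0 ± 0.817 in MIM-Astrocytes, 5.64 ± 0.145 in Glioblastoma, 15.2 ± 0.561 in NSC and 7.39 ± 0.207 in Astrocytes. The summed level was thus high in MIM-Astrocytes and NSC, where Fabp5 had its smallest shares. No test was run on sums, shares or ratios.

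**Figure D2:**
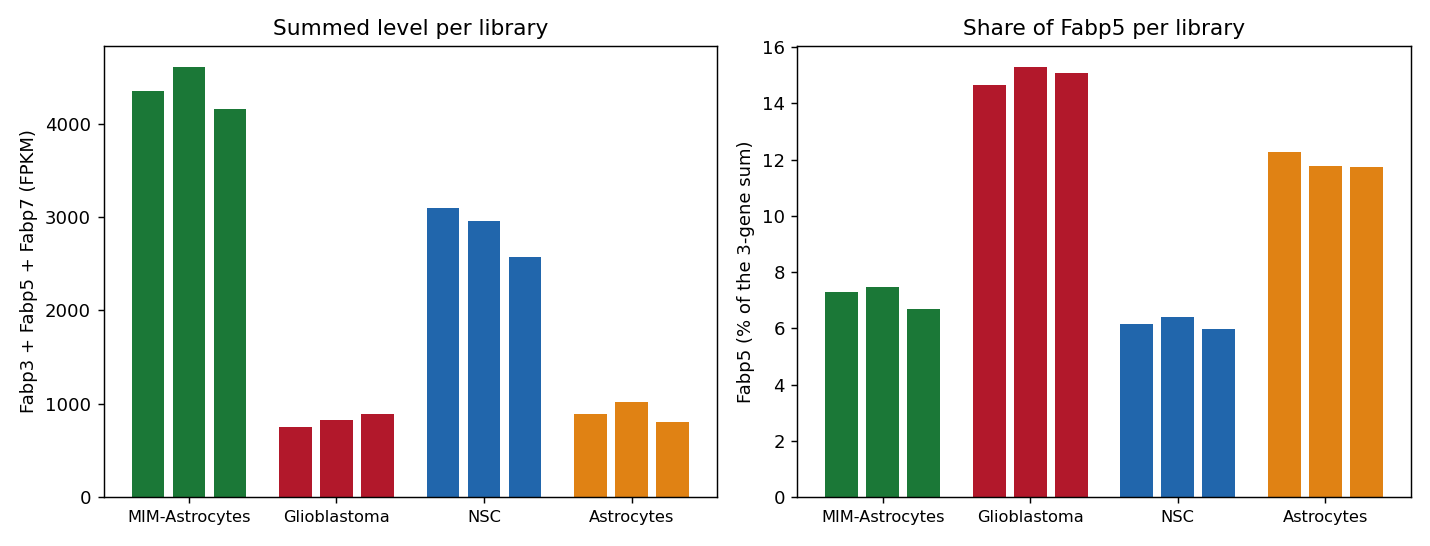
Left, summed level of Fabp3, Fabp5 and Fabp7 in FPKM, and right, Fabp5 as a percentage of that sum. Each bar is 1 library. The MIM-Astrocytes sums lie between 4155 and 4605 FPKM and the Glioblastoma sums between 746 and 893, while the Fabp5 share is between 6.70% and 7.48% in MIM-Astrocytes and between 14.7% and 15.3% in Glioblastoma.

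Read by comparison, the counts of called genes have to be set against a background in which most genes differed. In MIM-Astrocytes against Astrocytes 4 of the 7 tested genes were higher, 2 lower and 1 not called, and 61.4% of all tested genes were called, 34.8% higher and 26.6% lower. In NSC against Astrocytes the counts were again 4, 2 and 1, where 71.2% of all genes were called (37.7% higher, 33.4% lower). Glioblastoma against Astrocytes gave 2 higher, 3 lower and 2 not called, with 78.3% of all genes called (47.0% higher, 31.3% lower). MIM-Astrocytes against NSC gave 4 higher, 2 lower and 1 not called, beside 55.9% of all genes (31.0% higher, 24.9% lower). In Glioblastoma against NSC 2 were higher and 5 lower, beside 69.9% of all genes (44.8% higher, 25.1% lower). In MIM-Astrocytes against Glioblastoma 5 were higher and 2 lower, beside 69.8% of all genes (28.3% higher, 41.5% lower). The counts include calls tied to the filter. Fabp3, tested only because of its level in Glioblastoma, was among the genes called in every comparison with that group. Abcg1, tested only because of its level in NSC, was likewise called in every comparison with NSC. With shares this large the counts of 7 genes say little by themselves, and the sizes of the differences carry the description.

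The median difference of all tested genes was 0.09 in MIM-Astrocytes minus Astrocytes, 0.07 in NSC minus Astrocytes, 0.23 in Glioblastoma minus Astrocytes, 0.02 in MIM-Astrocytes minus NSC, 0.19 in Glioblastoma minus NSC and -0.13 in MIM-Astrocytes minus Glioblastoma. Scaling to a common total moved it to -0.18 in MIM-Astrocytes minus Astrocytes, -0.25 in NSC minus Astrocytes and -0.28 in Glioblastoma minus Astrocytes, and median-of-ratios scaling moved it to 0.00 in Glioblastoma minus NSC and to 0.01 in MIM-Astrocytes minus Glioblastoma. The share of all called genes that were higher went with it. It was 56.7% in MIM-Astrocytes minus Astrocytes and 32.1% with a common total, 53.0% in NSC minus Astrocytes and 32.6% with a common total, and 60.0% in Glioblastoma minus Astrocytes and 36.9% with a common total. For MIM-Astrocytes minus NSC it was 55.4%, and 42.8% after scaling to the protein-coding total. For Glioblastoma minus NSC it was 64.1%, and 46.9% after scaling to the protein-coding total. For MIM-Astrocytes minus Glioblastoma it was 40.5%, and 55.7% with a common total. Relative to the median gene, the small differences between MIM-Astrocytes and Astrocytes were 0.39 for Apoe, -0.42 for Abca1 and 0.11 for Abcg1, and Clu, Fabp5 and Fabp7 stood at -3.24, 1.45 and 2.27. Each called difference of the 7 genes kept its sign under the 4 other scalings.

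**Figure D3:**
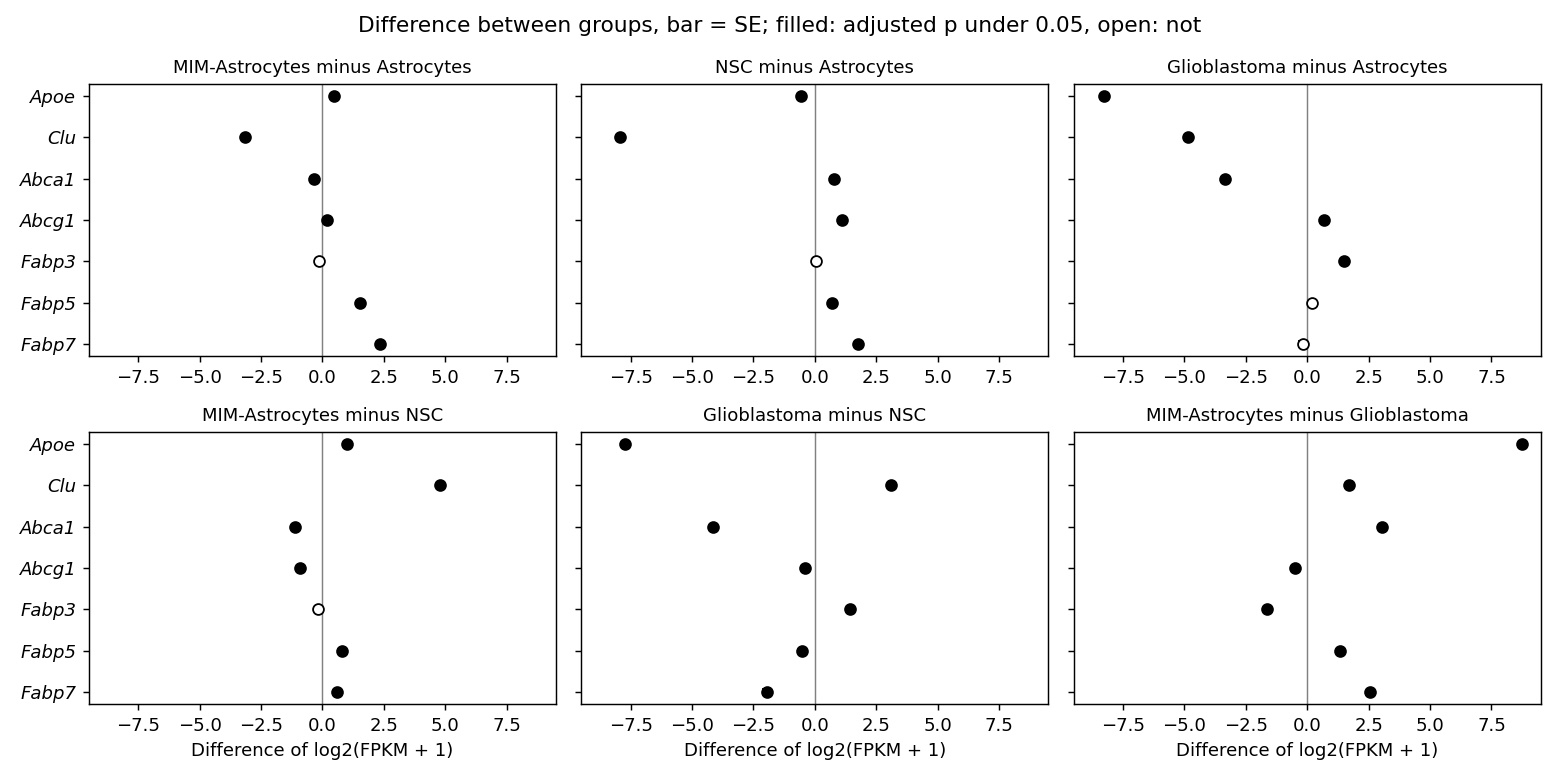
Difference between groups on the log2(FPKM + 1) scale for the 7 tested genes in the 6 comparisons. Points are differences of 3 against 3 libraries and bars their SE (0.04 to 0.13, mostly hidden by the points), filled where the adjusted p is below 0.05. Apoe lies at -7.73 in Glioblastoma minus NSC and at 0.48 in MIM-Astrocytes minus Astrocytes.

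Neighbouring genes were looked at for Apoe, Clu, Abca1 and Fabp7 in Glioblastoma against NSC, a choice made after their values were seen. Distances are between gene starts. Apoc1, an apolipoprotein gene 6.53 kb from Apoe, was lower too, at 0.0823 ± 0.0766 FPKM in Glioblastoma and 3.24 ± 0.697 FPKM in NSC (log2 difference -1.96, adjusted p = 2.45e-06). On the other side, Tomm40, a subunit gene of the mitochondrial import pore 16.2 kb away, was higher in Glioblastoma at 27.6 ± 0.744 FPKM, against 16.2 ± 1.90 FPKM in NSC (log2 difference 0.74, adjusted p = 0.000172). Scara3, a scavenger receptor gene 14.5 kb from Clu, was higher with it, at 6.57 ± 0.0618 FPKM in Glioblastoma and 0.391 ± 0.0689 FPKM in NSC (log2 difference 2.44, adjusted p = 9.47e-11). Slc44a1, a choline transporter gene 281 kb from Abca1, was lower with it, at 4.46 ± 0.182 FPKM in Glioblastoma and 21.7 ± 0.922 FPKM in NSC (log2 difference -2.06, adjusted p = 2.21e-10). Beside Fabp7, Smpdl3a at 9.45 kb differed by -0.42 (adjusted p = 0.00877) and Pkib at 153 kb by 1.05 (adjusted p = 0.00088).

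**Figure D4:**
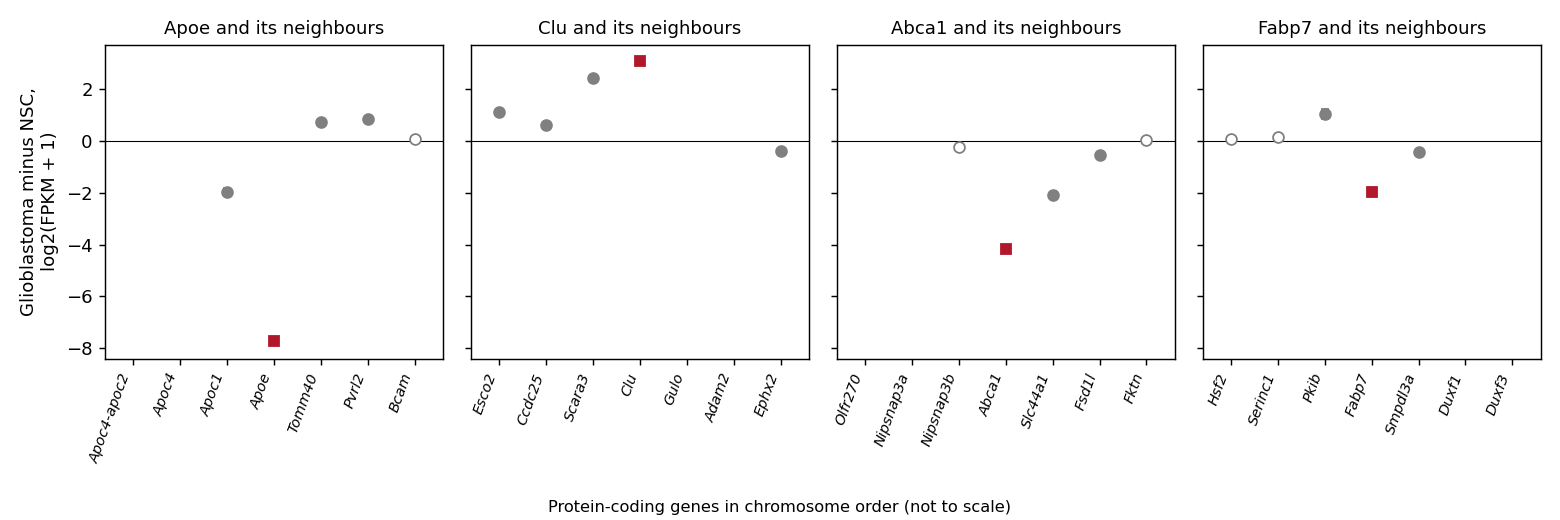
Glioblastoma minus NSC on the log2(FPKM + 1) scale for Apoe, Clu, Abca1 and Fabp7 (squares) and for 3 protein-coding genes to each side (circles), in chromosome order and not to scale. Bars are SE, filled symbols have an adjusted p below 0.05, and genes without a symbol were not tested. Apoc1 at -1.96 and Slc44a1 at -2.06 lie on the same side of 0 as Apoe and Abca1, and Tomm40 at 0.74 lies on the other side.

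The genes with the most similar pattern over the 12 libraries were ranked by the root mean square difference of centred log2 values among 9773 candidates. For Apoe these were Pla2g7, a secreted phospholipase A2 that hydrolyses platelet-activating factor, at a distance of 0.37, the gap junction gene Gja1 at 0.90 and the metallothionein gene Mt3 at 1.20. Pla2g7 stood at 508 ± 22.5 FPKM in MIM-Astrocytes, 1.33 ± 0.283 in Glioblastoma, 395 ± 30.3 in NSC and 449 ± 65.4 in Astrocytes. For Clu they were Gfap at 1.00, the lipocalin gene Lcn2 at 1.10 and the protease gene Bace2 at 1.20. For Abca1 they were Itih3 at 0.15, Eya1 at 0.18 and Zfp36l1 at 0.20, for Fabp5 Gria4 at 0.15 and Ccdc61 at 0.16, and for Fabp7 Spon1 at 0.16, Lfng at 0.20 and Snn at 0.23. Lfng, which encodes a glycosyltransferase that modifies Notch receptors, read 107 ± 14.0 FPKM in MIM-Astrocytes, 17.7 ± 0.603 in Glioblastoma, 95.5 ± 4.49 in NSC and 23.4 ± 1.71 in Astrocytes. For the low genes they were Mettl25 at 0.08, Fat3 at 0.08 and Ube2d1 at 0.11 beside Abcg1, and Imp3 at 0.094, Dync1li1 at 0.12 and Timm9 at 0.13 beside Fabp3. The scale compresses changes of low genes, so these small distances do not stand for like fold changes. Abcg1 was 27.3-fold higher in NSC than in Astrocytes, while Mettl25 read 9.38 ± 0.330 FPKM in NSC and 3.71 ± 0.137 in Astrocytes.

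The other genes of the pathway were read from lists for MIM-Astrocytes against Astrocytes and for Glioblastoma against NSC. Some list genes, like Abcg1 and Fabp3, passed the filter only through the group where they were high. This favoured a call in that direction. Examples are Apol9b and Crabp1 through Astrocytes, and Apold1, Mylip, Cd36, Slc27a6 and Abca4 through Glioblastoma. Under MIM, 61.4% of all tested genes were called, 34.8% higher and 26.6% lower. The lipoprotein receptors had 5 of 19 tested genes higher and 11 lower (84.2% called). Their median difference was -0.25 beside 0.09 for all genes. Vldlr, a receptor for apolipoprotein E and reelin, rose 2.61-fold, at 12.1 ± 1.87 FPKM in MIM-Astrocytes and 4.63 ± 0.686 in Astrocytes (adjusted p = 6.89e-06). Sorl1, a sorting receptor, fell 13.8-fold, at 7.78 ± 0.934 FPKM in MIM-Astrocytes and 108 ± 8.32 in Astrocytes (adjusted p = 1.78e-08). Of 10 other apolipoprotein and plasma lipid transfer genes 1 was higher and 6 lower. Lcat, which esterifies the cholesterol of lipoproteins, was 6.75-fold lower, at 8.95 ± 0.989 FPKM in MIM-Astrocytes and 60.5 ± 4.57 in Astrocytes (adjusted p = 2.98e-09). Among LXR, RXR and PPAR receptors and cofactors 4 of 13 were higher and 3 lower, 53.8% called beside 61.4% of all genes. Nr1h3, the gene of liver X receptor alpha, was 3.29-fold lower, at 2.13 ± 0.566 FPKM in MIM-Astrocytes and 6.99 ± 1.02 in Astrocytes (adjusted p = 5.76e-05), while its partner Rxra was 1.94-fold higher (adjusted p = 6.87e-06).

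Genes inside the cell were mixed under MIM. Intracellular cholesterol trafficking and storage had 5 of 20 genes higher and 11 lower (median -0.44, 80.0% called). The sterol transporter gene Gramd1a was 2.45-fold higher (adjusted p = 2.27e-05) and the oxysterol-binding protein gene Osbpl5 4.28-fold lower (adjusted p = 5.37e-08). Fatty acid uptake and activation had 4 of 13 higher and 5 lower (69.2% called). The acyl-CoA synthetase gene Acsl6 was 5.81-fold lower (adjusted p = 4.82e-09), as was Acsl3 by 2.57-fold (adjusted p = 4.77e-07). Lipid droplet and fatty acid oxidation genes had 6 of 27 higher and 10 lower, 59.3% called beside 61.4% of all genes. Hilpda, which encodes an inhibitor of the lipase ATGL, rose to 8.25 ± 0.467 FPKM in MIM-Astrocytes, against 1.63 ± 0.212 in Astrocytes (adjusted p = 1.29e-07). Cidea, a lipid droplet gene, was 0.0808 ± 0.0326 FPKM in MIM-Astrocytes and 14.2 ± 1.74 in Astrocytes (adjusted p = 6.84e-11). Other ABC transporters had 2 of 14 higher and 7 lower (64.3% called). Other intracellular carriers had 2 of 9 higher and 3 lower (55.6%), and other lipocalins 1 of 4 higher and 2 lower (75.0%). The lipocalins split, with Ptgds 3.24-fold higher (adjusted p = 3.00e-07) and Lcn2 9.30-fold lower (adjusted p = 6.03e-10). Each of the 9 lists had a negative median here and under the 4 other scalings, and with a common total the cholesterol trafficking list had 1 higher and 15 lower and the droplet and oxidation list 3 higher and 17 lower.

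In Glioblastoma against NSC, 69.9% of all tested genes were called, 44.8% higher and 25.1% lower. Fatty acid uptake and activation had 11 of 13 tested genes higher and 1 lower (92.3% called). Its median difference was 1.02 beside 0.19 for all genes. Under each of the 4 other scalings 9 were higher and 1 lower. Cd36 and Slc27a6 of this list were tested only because of their level in Glioblastoma, so part of its count follows from the filter. Acsl5, an acyl-CoA synthetase gene, was 16.1-fold higher, at 19.7 ± 1.43 FPKM in Glioblastoma and 1.22 ± 0.124 in NSC (adjusted p = 8.80e-09). The lipoprotein lipase gene Lpl, which also stands on the plasma lipid transfer list, was 6.29-fold higher (adjusted p = 1.70e-09), and the fatty acid transporter gene Slc27a1 was the one that fell, 2.80-fold (adjusted p = 2.28e-07). Among lipoprotein receptors 10 of 19 were higher and 4 lower, and 73.7% were called, near the share of all genes. Under the other scalings 6 to 8 were higher and 6 lower. Cd36 and Mylip of the receptors were tested only because of their level in Glioblastoma. Vldlr was 6.10-fold higher, at 45.5 ± 0.177 FPKM in Glioblastoma and 7.45 ± 0.742 in NSC (adjusted p = 2.47e-08), and Lrp1, a large endocytic receptor, was 2.92-fold lower (adjusted p = 1.76e-05). Srebf2, a regulator of cholesterol synthesis, was 1.84-fold higher (adjusted p = 3.45e-05). Its list of nuclear receptors and cofactors had 3 of 13 higher and 4 lower (53.8% called).

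The remaining lists moved both ways in Glioblastoma against NSC. Other ABC lipid transporters had 6 of 14 higher and 6 lower, with Abcg2, a multidrug and sterol transporter gene, 4.81-fold higher (adjusted p = 5.06e-08) and the peroxisomal transporter gene Abcd2 7.03-fold lower (adjusted p = 1.61e-06). Other carriers had 6 of 9 higher and 2 lower. One of the lower genes was Dbi, the acyl-CoA-binding protein gene, at 742 ± 43.8 FPKM in Glioblastoma and 1419 ± 135 in NSC (adjusted p = 8.59e-05). Cholesterol trafficking genes had 9 of 20 higher and 9 lower, and Npc1, which moves cholesterol out of lysosomes, was 3.20-fold lower (adjusted p = 8.76e-09). Lipid droplet and oxidation genes had 6 of 27 higher and 12 lower, 66.7% called beside 69.9% of all genes. Plin3, a droplet coat gene, was 0.164 ± 0.0604 FPKM in Glioblastoma and 9.51 ± 1.06 in NSC (adjusted p = 1.53e-09). Other apolipoprotein genes had 3 of 10 higher and 3 lower, and other lipocalins 1 of 4 higher and 1 lower. Under the 4 other scalings the cholesterol trafficking list had 5 to 6 higher and 10 to 11 lower, the ABC transporters 4 to 5 higher and 8 lower, the nuclear receptors and cofactors 1 to 2 higher and 7 to 9 lower, and the droplet and oxidation list 3 to 5 higher and 13 to 18 lower.

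**Figure D5:**
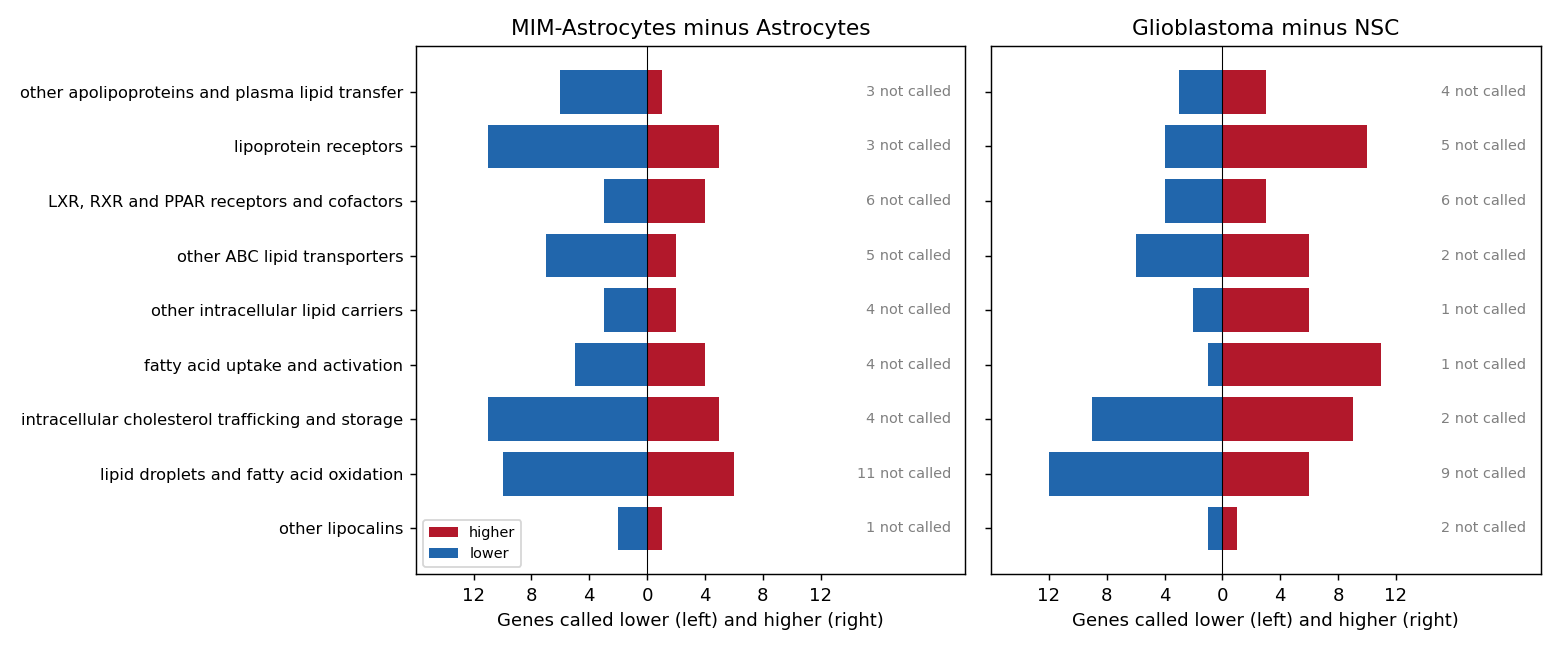
Number of tested genes called lower (left of 0) and higher (right of 0) at an adjusted p below 0.05 in each pathway list, for MIM-Astrocytes minus Astrocytes and Glioblastoma minus NSC. Grey text gives the tested genes not called. In Glioblastoma minus NSC, fatty acid uptake and activation has 11 genes to the right and 1 to the left. Cd36 and Slc27a6 of that list were tested only because of their level in Glioblastoma. Of all tested genes, 61.4% were called in MIM-Astrocytes minus Astrocytes and 69.9% in Glioblastoma minus NSC.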

How the data were processed

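The labels give 12 libraries of total RNA in 4 groups of 3. Per the file headers and the submitters' processing notes, the authors deposited FPKM per gene from Cufflinks (version not given) on GRCm38, each value with its interval and status. Aligner and strandedness are not given in the sources used here. Each table had 53989 lines for 53932 identifiers, and lines of one identifier were added. FPKM depend on what else a library holds, so a gene's value moves with the total.

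Genes with status OK in all 12 libraries and at least 1 FPKM in at least 3 were taken as log2(FPKM + 1) and tested in limma 3.58.1 (R 4.3.3) with 1 mean per group over 12 libraries, 8 residual degrees of freedom, variance trend, two-sided tests and Benjamini-Hochberg adjustment over 16982 genes in each of 6 comparisons. The fit was tested on simulated data. Other steps used pandas 2.3.3, NumPy 2.4.6 and matplotlib 3.10.9 under Python 3.11.15. Near-identical copies were found with BLAST 2.17.0 among annotated transcripts (at least 90% identity over at least 200 bases). Identifiers were matched to GENCODE release M21 (99.9%).

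The genes and lists were chosen with earlier results of these data known. Named list genes are up to 3 a direction with the smallest p and at least 5 FPKM in the higher group, some of which are not reported here. Likeness was ranked among protein-coding genes of at least 5 FPKM in their highest group, with up to 3 named for each gene. The neighbours, the repeat motif and the copies were chosen after values were seen. The alternatives tried were a pseudocount of 0.1 or 0.5, dropping the filter, requiring 5 FPKM on average, 4 scalings (median-of-ratios, common total, quantile, protein-coding total), the highest line of an identifier, no status rule, array weights, only the 6 libraries compared, a replicate block, and each library left out.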

Additional observations from a re-analysis of the deposited data

How the results depend on the processing

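Of 1092 values of single genes under other settings, 1064 kept their direction and their side of the threshold. The counts of all genes called fell with a filter of a mean of at least 5 FPKM, which tests fewer genes, to 6807 (10423 as reported) in MIM-Astrocytes minus Astrocytes, 7745 (12087) in NSC minus Astrocytes, 8446 (13294) in Glioblastoma minus Astrocytes, 7681 (11876) in Glioblastoma minus NSC and 7665 (11847) in MIM-Astrocytes minus Glioblastoma. It also left 3 of the described genes called in Glioblastoma minus Astrocytes, since Abcg1 and Fabp3 were no longer tested.

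Signs changed for differences that had not been called. Fabp5 in Glioblastoma minus Astrocytes was -0.11 with median-of-ratios scaling, -0.42 with a common total and -0.35 after quantile normalization. Fabp3 in NSC minus Astrocytes was -0.12 with a common total, -0.08 after quantile normalization, -0.14 with array weights, and, with each library left out in turn, from -0.05 (without Astrocytes replicate 3) through -0.02 (without NSC replicate 2) to 0.15. With its copy added, an alternative chosen after seeing the data, Fabp3 in MIM-Astrocytes minus Astrocytes was 0.05. Beyond the scalings shown by these values, the cause was not tested.

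The labels do not say that replicate numbers pair samples. Deviations of same-numbered libraries correlated at -0.058 to 0.097 across genes and those of different numbers at -0.121 to 0.0736. With a replicate block over 12 libraries no call of the described genes changed. With the block in the 6 libraries of a comparison, Apoe lost its call in MIM-Astrocytes minus Astrocytes (adjusted p = 0.301), in NSC minus Astrocytes (adjusted p = 0.0737) and in MIM-Astrocytes minus NSC (adjusted p = 0.1), and Fabp7 in MIM-Astrocytes minus NSC (adjusted p = 0.158).

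Precision was limited by 3 libraries a group, and for low genes by wide intervals (18.52% to 62.98% to each side for Fabp3).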
